A study of Macaca mulatta with 2 samples.

Results

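The transcription factors that build and keep the Sertoli cell were followed in primary Sertoli cell cultures of the rhesus monkey (Macaca mulatta). They were the 10 genes SOX9, SOX8, WT1, GATA4, GATA6, DMRT1, NR5A1, NR0B1, LHX9 and EMX2, taken by gene name from 21495 gene names on the array. They had 15 probes on 35 spots, out of 50173 probes on 51538 gene spots. One culture came from males of 18 to 22 months that had been brought into puberty by gonadotropin-releasing hormone (GnRH), infused through a catheter for 4 to 5 weeks in 2 min pulses of 0.15 µg/min, spaced 3 h apart. The other came from infant males under 3 months of age, for which no GnRH treatment is recorded. Both cultures were exposed for 12 h to follicle-stimulating hormone at 5 ng/ml and testosterone at 100 nM before RNA was taken, so no untreated culture stands beside them. The sources used here do not give the number of animals behind either culture.

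RNA of each culture was hybridised to 1 one-colour array of human oligonucleotide probes, 60 bases long. With 1 array per group there is no replicate and no test, and animal, culture, age and GnRH treatment cannot be told apart. The error given after a difference (±) is the scanner software's own error model for the spots, which does not cover the animal or the culture. Human probes can bind monkey RNA less well where the sequences differ, by an amount that depends on the probe, so the level of a probe is not set against that of another probe. Where signals of a marker list are summed, the sum is given for both arrays and is weighted towards its brightest probes.

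Sertoli cells line the seminiferous tubule, where they house and feed germ cells. In the fetal gonad the bipotential genital ridge depends on WT1, GATA4, NR5A1, LHX9 and EMX2. The Y-linked gene SRY then switches on SOX9, which acts with SOX8 to set the Sertoli fate. After birth DMRT1 and the SOX proteins hold that fate against the ovarian programme, and NR0B1 (DAX1) restrains transcription driven by NR5A1 (SF1).

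The 75th percentile of gene spot signals was 406.7 intensity units for the pubertal and 382.4 for the infant culture, and 54.8% and 54.7% of gene spots were flagged well above background. No gene spot was saturated. Pubertal minus infant, the 8 spike-in probes differed by -0.91 on the log2 scale before any scaling between arrays. Spots of the same probe had a median SD of 0.09 log2 on either array over 81 replicated probes. Differences below are log2 signals, each relative to its array's 75th percentile, pubertal minus infant. Over the 14243 genes measured on both arrays, the median difference was -0.06 and the median model error 0.21. Directions are relative to this scale: with scaling on the spike-in probes every difference is higher by 1.00, so a negative one smaller than that in size lies above 0 there.

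On the percentile scale DMRT1, NR0B1 and 1 of the probes of SOX8 had signals more than 2-fold higher in the pubertal culture. The signals of SOX9, WT1, GATA4, GATA6 and NR5A1 lay within 2-fold on that scale. LHX9 and EMX2 were not well above background in either culture. Of the 8 genes measured on both arrays, 3 were higher in the pubertal culture by at least 2-fold (37.5%), against 7.32% of all genes measured. None was lower by that much, against 6.32% of all genes, and 13.6% of all genes passed in either direction. Of the 3 higher genes, SOX8 passed as the mean of probes that disagreed. With scaling on the array median, normexp background correction or the brightest probe, 2 members were at least 2-fold higher. With scaling on the spike-in probes 7 members were, against 45.6% of all genes. SOX9 (1.42), WT1 (1.09), GATA6 (1.39) and NR5A1 (1.17) were then past 2-fold, and GATA4 (0.87) was not. Which members pass 2-fold thus depends on the scaling. The members were chosen with earlier results of these data known. The difference was above 0 for 7 of the 8, against 45.8% of all genes, and it was above 0 for 6 with scaling on the array median and for all 8 with scaling on the spike-in probes. The median of the 8 was 0.41. Among the 11 measured probes, 3 were past 2-fold upward and 0 downward, where all 20528 measured probes gave 6.97% and 6.83%, or 13.8% in either direction.

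**Figure D1:**
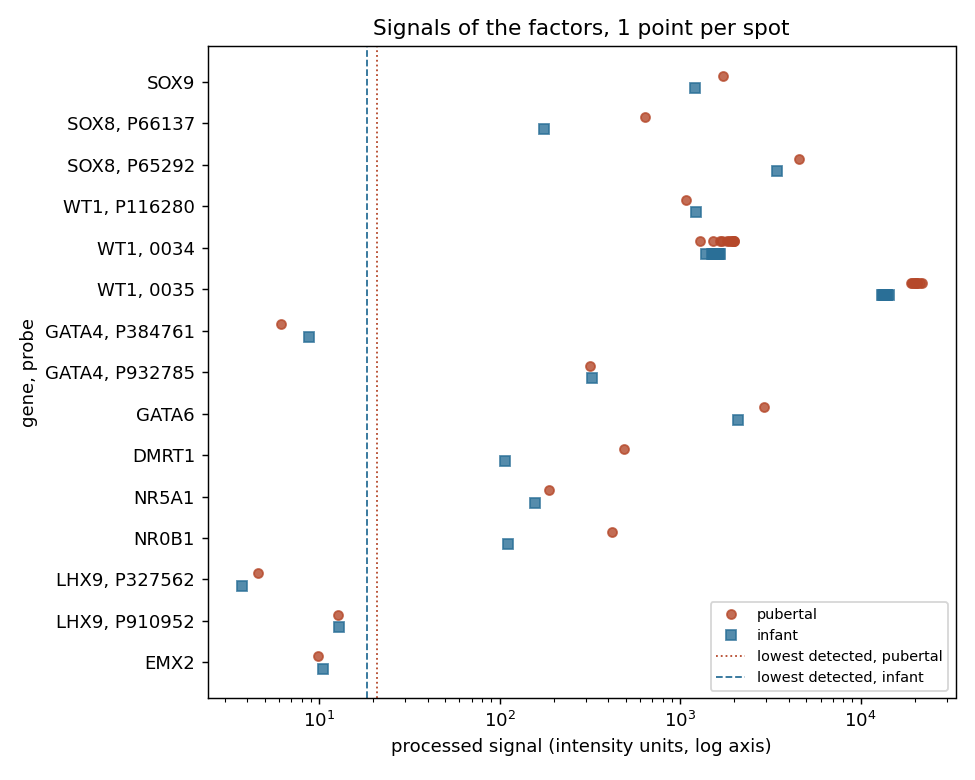
Processed signal (intensity units, logarithmic axis) of each spot of the 10 genes, circles for the pubertal and squares for the infant array, with vertical lines at each array's lowest signal well above background. The DMRT1 probe read 492 and 107 units and the NR0B1 probe 419 and 111, while the probes of LHX9 and EMX2 lay under 13 units on both arrays. Heights of different probes are not comparable.

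DMRT1 had the largest difference of the 8 measured genes. It encodes a DM-domain factor that maintains Sertoli identity after birth and is also active in spermatogonia. Its single spot read 492 units in the pubertal and 107 in the infant culture. The difference was 2.11 ± 0.21, or 4.33-fold, and 98.6% of the measured genes had a lower one. The value rests on the following probe, of which the first 30 bases are shown 5′ to 3′ as the array's design lists them, with the stop triplets TAA, TAG and TGA of any frame in capitals.
GT_44k_23_P169293: ttTAGtccagaggctgTAAcacatttgTAA
All 60 bases of the probe left 0 of the 3 forward frames open. A run of 15 or more bases was shared with 1 probe of another gene name.

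Germ cell markers also differed between the cultures, and they are given here because DMRT1 is a germ cell gene as well. Of 24 listed markers, 12 were measured on both arrays, 9 on the pubertal array alone and 3 (GFRA1, NANOS2 and STRA8) on neither. For comparison, 904 of all 21495 gene names were measured on the pubertal array alone. Of the 12, 8 were at least 2-fold higher in the pubertal culture and 1 lower, against 7.32% and 6.32% of all measured genes. The median of the 12 was 2.87. That median was 1.72 with normexp background correction and 1.92 with the median of all probes of a gene. The RNA-binding protein DAZL differed by 4.72 (1062 units against 37.9), the kinase STK31 by 4.71 and the receptor FGFR3 by 4.62. For STK31 and FGFR3 only 1 of 2 probes was measured on both arrays. The meiotic chromosome protein SYCP3, not well above background on the infant array, was at least 34.5-fold higher. Such a bound sets the bright signal against the infant array's lowest signal well above background, or against the gene's own where that is higher. The germ cell helicase DDX4 was at least 13.2-fold higher. The summed signal of the 12, on the log2 scale, was 4.99 in the pubertal and 5.33 in the infant culture, and UCHL1, also made by other cells, differed by -1.52. What part germ cell RNA has in the DMRT1 signal was not tested. In RNA from a whole culture, fewer cells of a type and less RNA per cell cannot be told apart.

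NR0B1, an orphan nuclear receptor without a DNA-binding domain of the usual kind, came next. Its spot read 419 units in the pubertal and 111 in the infant culture. The difference was 1.82 ± 0.21, or 3.54-fold, and 97.9% of the measured genes had a lower one. The first 30 bases of its probe, marked in the same way, are shown because the value has no other probe to set beside it.
GT_44k_23_P73632: TAAagtcatgtgggccacacaagtgcagta
No run of 15 bases was shared with a probe of another gene name.

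NR5A1, the nuclear receptor that NR0B1 restrains and a driver of steroid synthesis genes and AMH, read 189 units in the pubertal and 158 in the infant culture. Its difference of 0.17 ± 0.21 was smaller than its model error. NR0B1 and NR5A1 thus stood 3.54-fold and 1.12-fold higher in the same pair of cultures. The NR5A1 probe shared a run of 15 or more bases with 2 probes of another gene name.

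The SOXE factors gave different answers by gene and by probe. SOX9, the central factor of Sertoli fate, read 1727 units in the pubertal and 1214 in the infant culture. The difference was 0.42 ± 0.20. This single spot lay in an area counted as disturbed, where dim spots were brighter than elsewhere on the pubertal array. The 81 dim spots within 8 grid units had median signals of 32.8 (pubertal) and 4.54 (infant) units, against 4.97 and 4.37 over each whole array. The 76 bright spots within the same distance had a median difference of 0.04. Without spots in disturbed areas SOX9 has no value.

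SOX8, which acts alongside SOX9 and helps maintain the adult tubule, had a pair of probes that disagreed. The probe shown first read 641 units in the pubertal and 177 in the infant culture, a difference of 1.77 ± 0.21. The second read 4566 and 3435 units, a difference of 0.32 ± 0.20. Their mean of 1.05 (2.06-fold) lay just past 2-fold. The probe sequences are printed to show how different the stretches are, the first by its 30 leading bases and the second whole.
GT_44k_23_P66137: cctgctgccttcactcctttcTGAccaagc
GT_44k_24_P65292: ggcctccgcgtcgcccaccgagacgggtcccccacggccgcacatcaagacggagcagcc
The first probe held 45% G and C over its 60 bases and left 1 forward frame open. The second held 75% G and C and no stop triplet in any of the 3 frames. A gap between probes at least as wide as this one (1.45 log2) occurred in 4.43% of the 4767 genes with several measured probes, and in 3.42% of the 3600 genes with exactly 2. The median gap over the 4767 genes was 0.34. SOX8 was at least 2-fold higher in 8 of the 11 alternative ways of processing, and with its brighter probe alone the difference was 0.32. Among those 8, other filters on dim probes, the median of all probes and leaving out disturbed areas did not change its value.

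**Figure D2:**
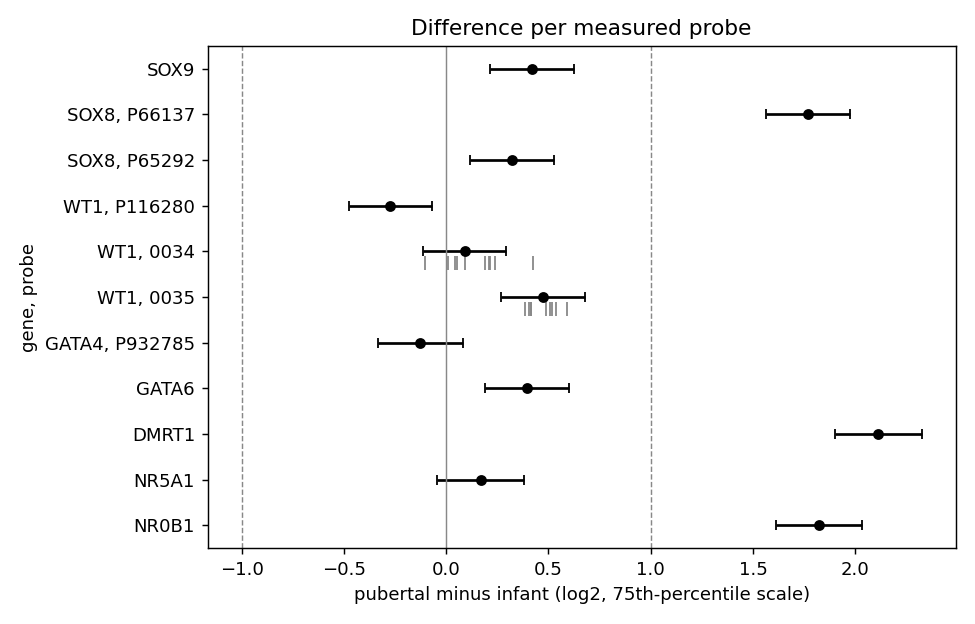
Difference of each measured probe, pubertal minus infant (log2), with the scanner software's model error as bars, grey ticks for the single spot pairs of the repeated WT1 probes and dashed lines at 2-fold. The probes of DMRT1 (2.11), NR0B1 (1.82) and the first of SOX8 (1.77) lie past 2-fold, the second SOX8 probe at 0.32 does not, and the probes of WT1 lie on both sides of 0.

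WT1, the zinc finger factor needed for the genital ridge and later for Sertoli identity, had 3 measured probes, of which 2 were each spotted 11 times. The probe with the brightest spots read 20272 ± 920 units in the pubertal culture (SD over 9 spots, range 19004 to 21747) and 13726 ± 399 in the infant culture (9 spots, range 13088 to 14360). The spots of the 2 arrays did not overlap, and all 9 spot pairs were higher on the pubertal array. Their difference was 0.47, with an SD over spot pairs of 0.07. Spots of a repeated probe vary little (median SD 0.09 log2 over 81 probes), so small differences between arrays can separate them. How many other repeated probes separated in this way was not counted. The other repeated probe read 1789 ± 227 units over 11 spots (range 1282 to 1998) and 1570 ± 83.1 over 10 spots (range 1388 to 1664). Here the spots overlapped between arrays, and the probe's difference was 0.09. The 10 spot pairs gave a mean of 0.14 with an SD of 0.15, and 9 of them were positive. The single-spot probe read 1082 and 1229 units, a difference of -0.27 ± 0.20. Repeat spots measure the array and not the culture, so none of this is a test of age. The mean over the probes was 0.10, and it was -0.06 with scaling on the array median.
The leading 30 bases of the WT1 probes, in the order described and with stop triplets in capitals, share no run of 15 bases with a probe of another gene name.
GT_HS_44k_0035: gcatcactgggtgtTGAtcttacaagatat
GT_HS_44k_0034: ccacTGATAAgactgttttTAAgTAActta
GT_44k_23_P116280: cctggagaagcagcTAAcaatgtctggtta
The gap between the lowest and the highest WT1 probe was 0.75 log2.

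The zinc finger factors GATA4 and GATA6, which bind promoters of AMH, the inhibins and steroid synthesis genes, differed little on the percentile scale. GATA6 read 2934 units in the pubertal and 2097 in the infant culture, a difference of 0.40 ± 0.20. That difference was 1.39 with scaling on the spike-in probes. One GATA4 probe read 317 and 325 units, a difference of -0.13 ± 0.21, which lay above 0 (0.87) with scaling on the spike-in probes. The other GATA4 probe, at 6.20 and 8.84 units, did not rise well above background in either culture.

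LHX9 and EMX2 are homeobox factors of the early genital ridge. The LHX9 probes read 4.59 and 12.7 units in the pubertal culture and 3.73 and 12.9 in the infant culture. The EMX2 probe read 9.93 and 10.55 units. The lowest signals flagged well above background were 20.8 units (pubertal) and 18.5 units (infant), so no fold is given for either gene. Whether monkey transcripts match these human probes could not be read from the arrays.

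**Figure D3:**
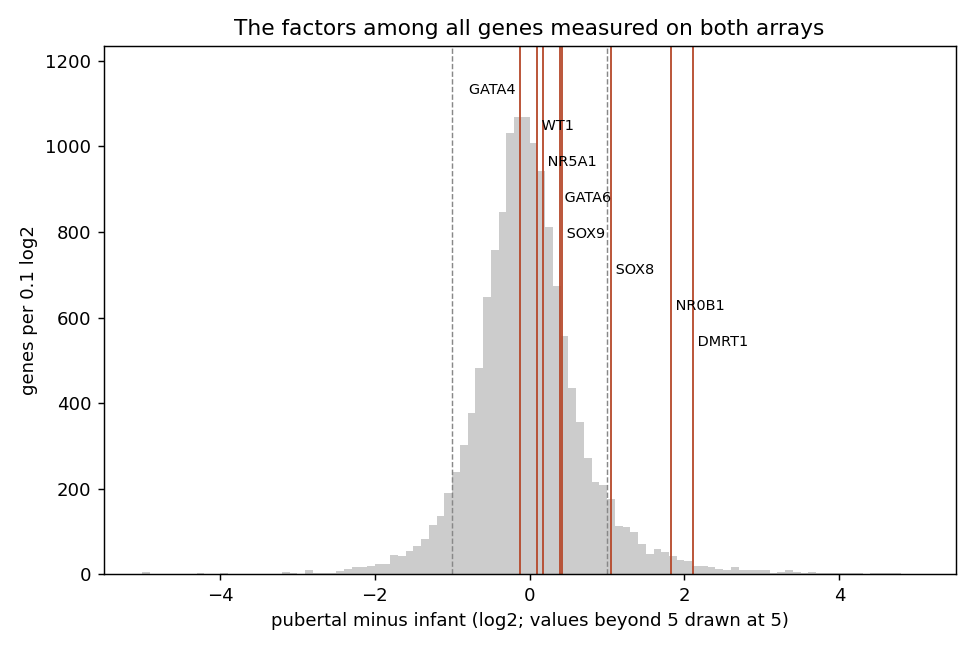
Histogram of the differences of the 14243 genes measured on both arrays (pubertal minus infant, log2; genes per 0.1 log2), with lines for the 8 measured factors and dashed lines at 2-fold. GATA4, WT1 and NR5A1 lie near the centre at -0.13, 0.10 and 0.17, and SOX8, NR0B1 and DMRT1 lie past 2-fold at 1.05, 1.82 and 2.11; GATA4 lies above 0 with scaling on the spike-in probes and WT1 below 0 with scaling on the array median.

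Partners of the factors in the gonad were described by lists, each against the 7.32% of all genes at least 2-fold higher and the 6.32% lower. Of 15 genital ridge regulators, 12 were measured, 1 was past 2-fold upward and 1 downward, and the median was -0.26 (0.73 with scaling on the spike-in probes). The Polycomb protein CBX2, which acts upstream of SRY, was higher by 1.04. Of its 3 probes 2 were measured, at 0.997 and 1.08, so 1 of them lay just under 2-fold. The orphan receptor NR2F1 differed by -1.15 over 3 probes, which is within 2-fold with scaling on the spike-in probes. ZFPM2 (FOG2), the partner that GATA4 needs in the gonad, differed by -0.40, with probes at -0.71 and -0.09.

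Downstream in the testis pathway, 9 of 16 genes were measured, with 2 past 2-fold upward, 0 downward and a median of 0.35. AMH, the hormone that removes the Müllerian ducts and a target of SOX9, NR5A1, GATA4 and WT1, read 10881 units in the pubertal and 1055 in the infant culture, a difference of 3.28. FGF9, which sustains SOX9 in the fetal gonad, read 727 and 270 units, a difference of 1.34. PTGDS, the prostaglandin D synthase of the SOX9 loop, differed by 0.35 over 3 probes. SRY, at 5.24 and 4.54 units, did not rise well above background in either culture.

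Genes of the opposing ovarian pathway were also measured. Of 17 genes, 10 were measured, with 4 past 2-fold upward, 0 downward and a median of 0.68. The 4 were LEF1 (2.69), FZD1 (1.78) and AXIN2 (1.73), all of the Wnt pathway, and the activin-binding protein follistatin, FST (1.25). For LEF1, FZD1 and AXIN2 only 1 of several probes was measured. Also of the Wnt pathway, WNT4 differed by -0.16 and CTNNB1 by -0.72, each over 2 probes. Both were above 0 with scaling on the spike-in probes. FOXL2, the factor that holds ovarian granulosa fate and is opposed by DMRT1 and SOX9, read 19.9 and 3.83 units and did not rise well above background in either culture. BMP2 was well above background on the infant array alone, at least 1.12-fold lower in the pubertal culture.

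Among 28 genes reported elsewhere as targets of the 10 factors, 21 were measured. Of these, 5 were past 2-fold upward and 4 downward, and their median was 0.31. Beside AMH, the higher ones were the Notch ligand DLL1 (2.47), the retinoic acid-degrading enzyme CYP26B1 (2.44), the sialomucin PODXL (2.39) and the intermediate filament NES (1.08). For CYP26B1 only 1 of 2 probes was measured. The 4 lower ones were STAR, CYP17A1, CYP11A1 and SCARB1. STAR, which carries cholesterol into mitochondria, read 2158 units in the pubertal and 38384 in the infant culture, a difference of -4.24. CYP17A1, the enzyme of androgen synthesis, read 82.2 and 1433 units, a difference of -4.21. CYP11A1, which makes pregnenolone from cholesterol, differed by -1.37 and the lipoprotein receptor SCARB1 by -1.25, both within 2-fold with scaling on the spike-in probes. Not every steroid synthesis gene in the lists was lower, since HSD3B2 differed by 0.25 and HSD17B3 by 0.35. Among the other targets, POR differed by -0.88 and FDX1 by -0.73, both within 2-fold. INHA, the inhibin alpha subunit, differed by -0.52 and the AMH receptor AMHR2 by 0.45.

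STAR, CYP17A1 and CYP11A1 are also Leydig cell markers, and they were the 3 genes at least 2-fold lower among the 8 of 9 Leydig markers measured. Of all measured genes, 6.32% were lower by that much. The median of the 8 was 0.29, and their summed signal was 5.77 in the pubertal and 7.30 in the infant culture on the log2 scale. LHCGR, the receptor that defines Leydig cells, did not rise well above background in either culture. What part Leydig cell RNA has in these differences was not tested.

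Relatives of the factors within their own families were then listed. Of 38 paralogues, 17 were measured on both arrays, 6 on the pubertal array alone and 15 on neither. Over all 21495 gene names, 904 were measured on the pubertal array alone. Among the 17 paralogues, 4 were past 2-fold upward and 2 downward, and their median was 0.28. DMRTC1, a DM-domain relative of DMRT1, differed by 3.61 on 1 of its 2 probes (307 units against 23.7). SOX11 differed by 1.40, also on 1 of 2 probes. NR0B2 (SHP), the only close relative of NR0B1, differed by -2.05. NR0B2 read 402 units in the pubertal and 1566 in the infant culture, the opposite direction to NR0B1, which the shift of 1.00 with spike-in scaling does not turn. Of the 6 genes above background on the pubertal array alone, LHX6 was at least 10.1-fold higher on 1 of its 2 probes, and 4 were DM-domain genes. Those were DMRTC2 (at least 7.77-fold), DMRT3 (6.75-fold), DMRTB1 (5.15-fold) and DMRT2 (1.95-fold), which were chosen for naming after their values were seen. The DM-domain relatives DMRTA1 and DMRTA2, measured on both arrays, differed by 0.50 and 0.03.

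**Figure D4:**
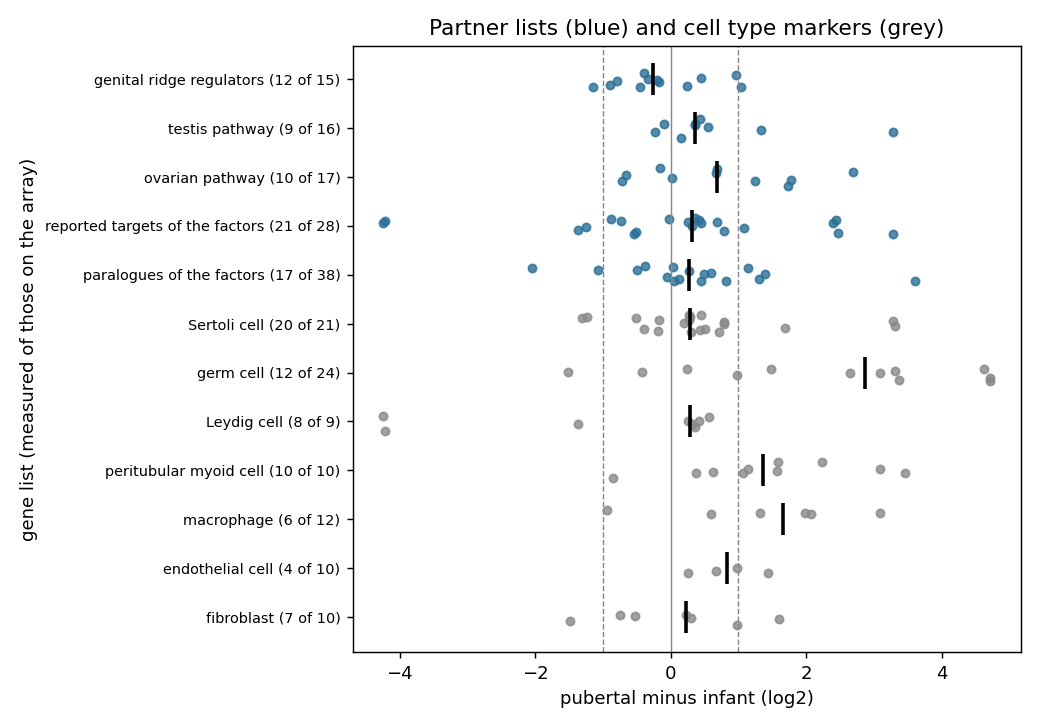
Differences of the measured genes in each of the 12 lists (pubertal minus infant, log2), a point per gene and a bar at the list's median, with dashed lines at 2-fold. The germ cell list has the highest median (2.87), followed by macrophage (1.65) and peritubular myoid (1.36) markers, and the genital ridge list is the lowest (-0.26, but 0.73 with scaling on the spike-in probes).

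The labelled cell type was checked against its markers. Over all genes measured on both arrays, 7.32% were at least 2-fold higher and 6.32% lower, which holds as background for each count here. Of 21 Sertoli cell markers on the array, 20 were measured in both cultures and DEFB119 in the pubertal one alone (at least 7.33-fold higher over its 2 probes). Of the 20, 3 were past 2-fold upward and 2 downward, and their median was 0.29. The summed signal was 9.63 in the pubertal and 9.65 in the infant culture on the log2 scale. The largest terms in both sums were VIM (8.05 and 8.24) and BEX2 (7.26 and 7.43). The iron carrier transferrin, TF, differed by 3.32. PRND, which encodes a prion-like protein, differed by 1.68 on the only 1 of its 3 probes measured on both arrays. Another PRND probe was brighter on the pubertal array, at 1245 units, and does not enter that value. The 2 lower ones were the inhibin subunit INHBB at -1.31 and the keratin KRT18 at -1.24 over 4 probes, both within 2-fold with scaling on the spike-in probes. Peritubular myoid markers were all measured, 10 of 10, and 7 were at least 2-fold higher in the pubertal culture with a median of 1.36 (ACTA2 at 3.46, ACTG2 at 3.10 and MYH11 at 2.24), while LMOD1 was at -0.85. Their summed signal was 7.56 and 6.90. Macrophage markers were measured for 6 of 12 genes, 4 of them at least 2-fold higher, with a summed signal of 2.34 and 0.21. CD163 differed by 3.09, CSF1R by 2.07 and PTPRC by 1.99, and MRC1 was at least 4.51-fold higher, although 1 of its 2 spots lay in a disturbed area. CD68 differed by -0.94. The median of the 6 was 1.65, and 0.97 with normexp background correction. Endothelial markers were measured for 4 of 10 genes (PECAM1 at 1.43, TEK at least 2.06-fold higher), with sums of 0.81 and -0.24. Fibroblast markers were measured for 7 of 10 (DPT at 1.60, DCN at -1.49, LUM at least 6.73-fold higher), with sums of 5.05 and 5.28. The part of these cell types in the differences of the 10 factors was not tested.

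**Figure D5:**
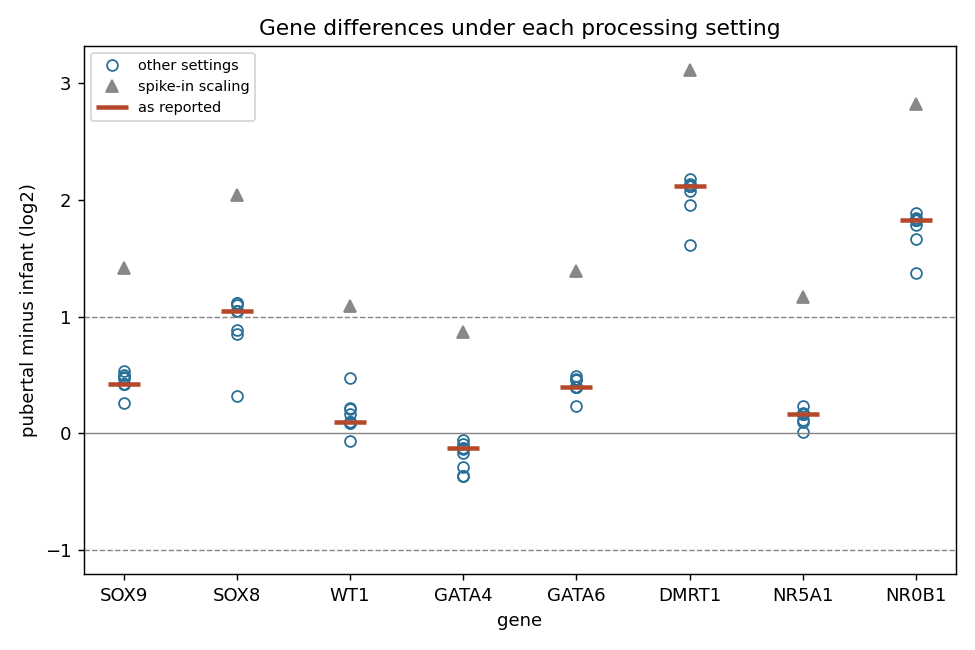
Difference of each measured factor (pubertal minus infant, log2) as reported (bars), with scaling on the spike-in probes (triangles) and under the other alternatives (circles), with dashed lines at 2-fold. DMRT1 and NR0B1 lie past 2-fold under all 11 alternatives and SOX8 under 8, and scaling on the spike-in probes moves every factor upward by 1.00. These tallies are not independent checks. DMRT1 and NR0B1 have 1 probe with 1 spot each, so other ways to combine probes could not move them, and other filters left them unchanged. Some of the 8 alternatives likewise leave SOX8 unchanged at 1.05.

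The spread of each factor over the ways of processing, leaving aside the spike-in scaling, was widest for the SOX8 gene. DMRT1 ranged from 1.61 to 2.18 and NR0B1 from 1.37 to 1.89, with the lower ends from normexp background correction. SOX8 ranged from 0.32 to 1.12. SOX9 lay between 0.26 and 0.54, GATA6 between 0.24 and 0.49 and NR5A1 between 0.01 and 0.23. WT1 ranged from -0.06 to 0.47 and GATA4 from -0.36 to -0.06. No factor was 2-fold lower under any alternative.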

How the data were processed

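Groups were taken from the sample titles. Each spot intensity was deposited as Feature Extraction 10.5.1.1 wrote it, which the headers and the submitters' processing notes name. The authors' processed intensity had local background removed and a spatial trend corrected, per the file headers, on a human design annotated on hg18. Outlier spots (96 pubertal, 91 infant) and control spots were dropped. Signals were put on the log2 scale relative to each array's 75th percentile, spots of a probe were averaged, and a probe was measured where at least 50% of its spots were well above background. Gene values are means over probes measured on both arrays. With 1 array per group no test was made, and precision is limited by the number of arrays. The members and the 12 gene lists were chosen with earlier results of these data known. Named were all members, 10 set genes (AMH, AMHR2, INHA, STAR, CYP17A1, FOXL2, FGF9, PTGDS, SRY and ZFPM2) and, per list, the 3 largest differences past 2-fold and the largest bound. Other genes were chosen after their values were seen. Spots were counted as disturbed when 2 or more spots within 2.3 grid units shared a direction and differed by more than 4 log2, or when 6 or more dim spots within 4.2 units had a median difference above 1.5 in either direction, which holds for 833 spots. Alternatives were other scalings (array median, detected probes, spike-in probes, quantile, loess), normexp background correction, other filters on dim probes, other ways to combine probes, other fold thresholds and leaving out disturbed areas. Names were matched to macaque RefSeq gene tables (10 of 10 members). Probe coordinates were not used here. The value functions were tested on simulated data. Python 3.11.15, pandas 2.3.3, R 4.3.3 and limma 3.58.1 were used.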

Additional observations from a re-analysis of the deposited data

How the results depend on the processing

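No paired analysis was possible because each group has 1 array, so the groups share fewer than 2 replicate numbers. No factor or list median that was past 2-fold as reported changed sign under any alternative. All of these were above 0, and the largest shift, with spike-in scaling, was upward, so it could not reverse them. Within 2-fold, signs did change for GATA4 (0.87) and the genital ridge median (0.73) with spike-in scaling. WT1 changed to -0.06 with scaling on the array median. Scaling on the array median shifted the median of all genes by -0.16, gave 785 genes higher and 1305 lower (37.6% of calls upward against 53.7%), and left SOX8 at 0.89, so that 2 members were past 2-fold. Scaling on the 8 spike-in probes shifted it by 1.00 and gave SOX9 1.42, SOX8 2.04, WT1 1.09, GATA4 0.87, GATA6 1.39, DMRT1 3.11, NR5A1 1.17 and NR0B1 2.82, with 7 members and 6495 genes at least 2-fold higher and 123 genes lower, 98.1% of calls upward. List medians then were 0.73 (genital ridge), 1.35 (testis), 1.68 (ovarian), 1.31 (targets), 1.27 (paralogues), 1.29 (Sertoli), 3.87 (germ), 1.28 (Leydig), 2.36 (myoid), 2.65 (macrophage), 1.83 (endothelial) and 1.22 (fibroblast). Normexp correction gave DMRT1 1.61, NR0B1 1.37 and SOX8 0.85, 553 genes higher and 568 lower, and medians of 0.40 (ovarian), 1.72 (germ), 0.98 (myoid), 0.97 (macrophage) and 0.59 (endothelial). With no filter on dim probes, 2081 of 21495 genes were higher (9.68%) and 1485 lower (6.91%), against 7.32% and 6.32% of 14243 as reported. GATA4 was then at -0.36, and medians were 2.60 (germ), 1.37 (macrophage) and 0.55 (endothelial). The weaker detection flag gave 1710 and 1363 genes, GATA4 -0.36 and macrophage 1.32. The brightest probe gave SOX8 0.32, WT1 0.47 and endothelial 1.08. The median of all probes gave GATA4 -0.36, ovarian 0.97, germ 1.92 and macrophage 1.17. Loess gave paralogues 0.49. Percentile scaling over detected probes gave 60.4% of calls upward. At 1.5-fold 2142 genes were higher and 2392 lower, and at 4-fold 238 and 122, with 1 member. Apart from what each alternative does by construction, the cause of these shifts was not tested. Probes near background, such as those of LHX9 and EMX2, allow no fold.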

Other observations

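Probes labelled for the antisense transcript EMX2OS, which lies beside EMX2 in the opposite orientation, were looked up after the EMX2 value was seen. Of 9 such probes, 4 were well above background on both arrays, at 6760 to 18904 units in the pubertal and 5566 to 14836 in the infant culture. Their differences ran from 0.19 to 0.27. All 4 were designed on the same transcript record. The other 5, designed on another record or listed under the gene's name, did not rise well above background, nor did the EMX2 probe. The transcript WIT1, the upstream neighbour of WT1, read 517 and 489 units, a difference of -0.01.

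DMRT1 is a neighbour of DMRT3 and DMRT2 in the macaque gene table, in the order DMRT2, DMRT3, DMRT1. Of the 3 DMRT3 probes, one read 165 units in the pubertal and 13.0 in the infant culture, another 107 and 9.39, and the last 4.60 and 3.83. The DMRT2 probe read 38.3 and 6.63 units. Only the pubertal values of 165, 107 and 38.3 were well above background.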
